A study of Homo sapiens with 6 samples.

Results

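Of the 6831 genes that the authors' deposited table lists as differing between DEG-35-treated and DMSO-treated MOLM-13 cells, 61 encode proteasome parts, chaperones or co-chaperones by name. They were taken by symbol: names beginning with PSMA, PSMB, PSMC, PSMD, PSME, PSMG, DNAJ, CCT and a digit, HSPA, HSPB, HSPD, HSPE, HSPH or HSP90, without names that hold a hyphen or end in P and a number. RefSeq has 129 protein-coding genes whose current or older symbol follows the same rule, so 68 of them were not listed. MOLM-13 is an established human acute myeloid leukaemia line, labelled wild type, and DEG-35 is described by the study as a degrader of both IKZF2 and CK1α. The treated group received 50 nM DEG-35 for 24 h and the other the solvent DMSO for the same time, with 3 RNA-seq libraries in each. The libraries were made from total RNA with an mRNA kit, and whether they are separate cultures is not stated in the labels, which means that the spread behind the p-values may be technical.

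For each gene the table holds 3 columns, the log2 fold change and its raw and adjusted p, and a gene is listed where the adjusted p is below 0.05. Its header does not name the numerator. All directions are read as DEG-35 over DMSO, and each would turn round with the other order. No per-library values or levels were analysed, so depth is unknown and the labelled cell type could not be checked against its markers. Errors are standard errors implied by each log2 fold change and its p-value under a normal test, written as implied SE, and intervals are 95% intervals from them. The scaling between groups is also unknown, so each direction of a gene group was looked at again with all log2 fold changes shifted up or down by 0.3.

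The proteasome degrades proteins that carry ubiquitin. Its barrel, the 20S core, is built of outer alpha rings and inner beta rings that hold the proteolytic sites, and the 19S regulatory particle recognises, unfolds and threads in the substrate. Chaperones of the HSP70 and HSP90 families and the ring-shaped chaperonins fold proteins at the cost of ATP. DNAJ proteins bring clients to HSP70 and start its ATP cycle, and HSP110 proteins reset it by exchanging the nucleotide. Small-molecule degraders in general depend on the proteasome, since they direct their targets to ubiquitin ligases.

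In the authors' deposited table lower genes numbered 50 and higher genes 11, and the median of the 61 log2 fold changes was -0.31, against -0.19 over all 6831 listed genes; 18 of the 50 would turn higher if all values were shifted up by 0.3, and 4 of the 11 would turn lower if they were shifted down. In bulk RNA, a smaller share of cells expressing a gene and less RNA per cell cannot be told apart. Lower genes made up 82.0% of the listed members and 52.9% of all listed genes. With values shifted up by 0.3, 52.5% of the members were lower, while 60.8% of all listed genes were higher. With values shifted down by 0.3, 88.5% of the members were lower, and 36.6% of all listed genes were higher. As a background, 15064 genes had been tested, as the adjusted p-values imply, and 45.3% of them were called in either direction, 24% as lower and 21.4% as higher. Of the 129 RefSeq genes 47.3% were listed, 38.8% as lower and 8.53% as higher. The 2 kinds of share have different bases, because the 129 include genes that were perhaps not expressed and not tested.

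**Figure D1:**
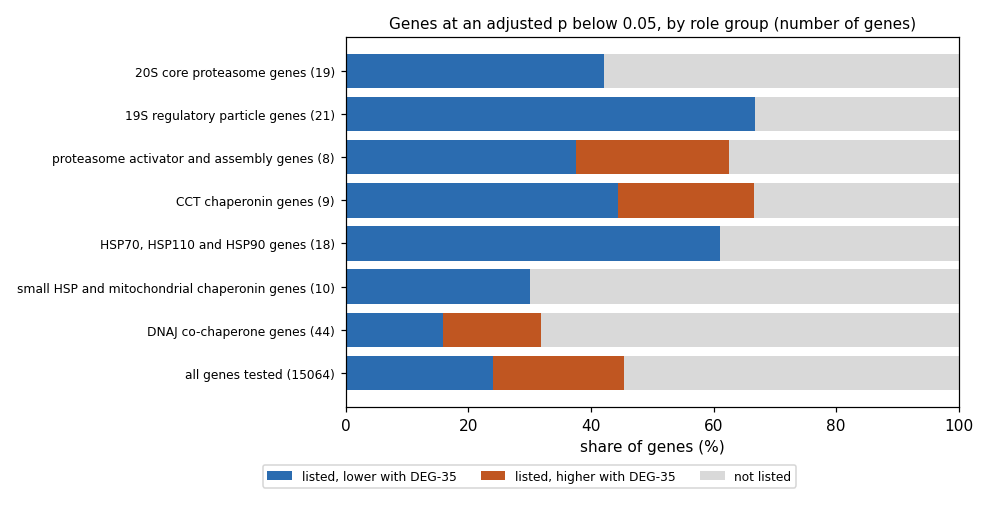
Share of genes (%) listed as lower (blue) or higher (orange) with DEG-35 at an adjusted p below 0.05, or not listed (grey), for each role group among its RefSeq protein-coding genes and for all 15064 genes tested. Blue without orange is seen in the 20S core, the 19S particle, the HSP70, HSP110 and HSP90 group and the small heat shock and mitochondrial chaperonin group, whereas DNAJ genes are split evenly; with values shifted up by 0.3, each of these groups would hold at least 1 higher gene.

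Most changes were modest. In the authors' deposited table a set of 21 of the 61 genes had an absolute log2 fold change of 0.5 or more, 15 of them lower and 6 higher, and 5 had one of 1 or more. The lower members had a median of -0.34, against -0.45 over all 3613 lower genes of the table, and the higher members a median of 0.68, against 0.50 over all 3218 higher genes. The lower members were precisely measured, with a median implied SE of 0.0636, and the higher ones less so, with a median of 0.141. All listed genes together had a median implied SE of 0.0891.

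**Figure D2:**
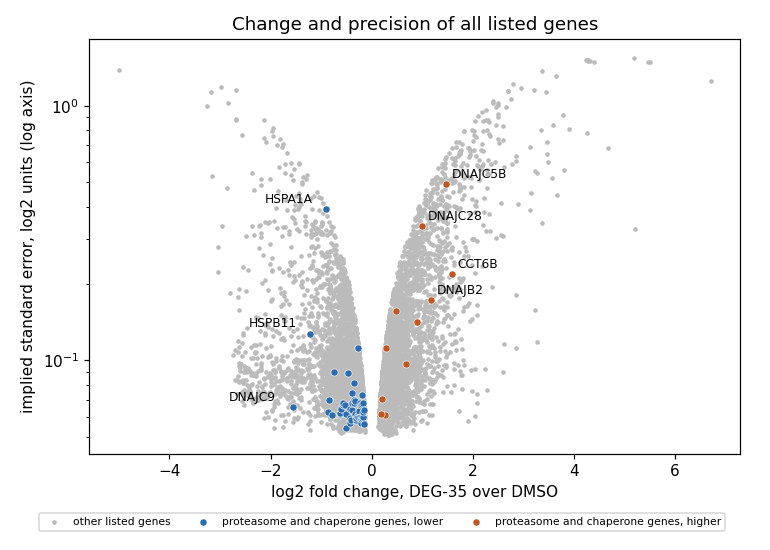
Log2 fold change (DEG-35 over DMSO) against implied SE in log2 units on a log axis for all listed genes with an implied SE, with the 61 proteasome and chaperone genes in colour. Most lower members (blue) crowd at small changes and small errors, while DNAJC9, at -1.56, stands far out with a small error, and DNAJC5B, DNAJC28 and CCT6B combine a rise with a large error.

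Of 19 genes of the 20S core 8 were listed in the authors' deposited table, all 8 lower, their log2 fold changes having a median of -0.33 and a range from -0.43 to -0.16, and 3 of them, PSMA4, PSMA3 and PSMB1, would turn higher with all values shifted up by 0.3. The listed share, 42.1%, was near the background of 45.3% in either direction. By direction, 42.1% were lower, against the background of 24%, and 0% higher, against 21.4%. PSMA7, an alpha-ring subunit, fell by 25.6% in the authors' deposited table (log2 fold change -0.43 ± 0.0642 implied SE, adjusted p = 2.82e-10). PSMA2, PSMA4 and PSMA3 of the same ring stood at -0.33, -0.24 and -0.21 in the authors' deposited table, with PSMA1, PSMA5 and PSMA6 not listed. Both rings had thus about the same representation, with 4 of 7 genes of each.

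The listed beta-ring genes lay between -0.41 and -0.16 in the authors' deposited table. PSMB2 stood at -0.41 ± 0.0586 (adjusted p = 1.94e-11) and PSMB3 at -0.33 ± 0.0608 (adjusted p = 2.69e-07) in the authors' deposited table. PSMB6, which carries the caspase-like site, stood at -0.39 ± 0.0642 (adjusted p = 1.08e-08) in that table by the authors, and the genes of the other constitutive proteolytic sites, PSMB5 and PSMB7, were not listed. PSMB1 had the smallest change of all members, -0.16 ± 0.0562 in the authors' deposited table (adjusted p = 0.0146), with an interval from -0.27 to -0.05. None of the 5 genes for immune or tissue-specific core subunits was listed, among them PSMB8, PSMB9 and PSMB10, the beta subunits that interferon-γ induces. Genes that are not listed failed the threshold or were never tested, and their absence does not show an equal level.

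The 19S regulatory particle had more listed genes than the core. Of 21 genes with a PSMC or PSMD name 14 were listed in the authors' deposited table, all 14 lower and with a median of -0.34 on the log2 scale; 4 of them, PSMD7, PSMD13, PSMD3 and PSMD14, would turn higher with all values shifted up by 0.3. The listed share was 66.7%, against the background of 45.3% in either direction and 24% for lower genes. PSMC3IP, 1 of the 14, is a proteasome gene by name only: its product, also known as HOP2, acts in homologous recombination, and it stood lowest among them at -0.75 ± 0.0903 in the authors' deposited table (adjusted p = 8.98e-16).

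Among the ATPase genes, which form the ring that unfolds substrates, PSMC3 was lowest and fell by 34.4% in the authors' deposited table (-0.61 ± 0.0647, adjusted p = 8.86e-20). PSMC2 stood at -0.35 ± 0.0697 and PSMC5 at -0.31 ± 0.0584 in the authors' deposited table, and the genes of the other 3 ATPases, PSMC1, PSMC4 and PSMC6, were not listed. Of 11 non-ATPase subunit genes 9 were listed, all lower, 81.8% against the background of 24% for lower genes. With values shifted up by 0.3, 4 of the 9 would turn higher. The scaffold subunit genes PSMD1 and PSMD2 stood at -0.56 ± 0.0669 (adjusted p = 7.74e-16) and -0.43 ± 0.0570 in the authors' deposited table. PSMD11, a lid subunit known to limit the assembly of full proteasomes, stood at -0.52 ± 0.0667 (adjusted p = 6.73e-14) in the authors' deposited table. The lid genes PSMD12 and PSMD8 stood at -0.34 and -0.33 there, and PSMD7, the partner of the deubiquitinase subunit, at -0.28 in the authors' deposited table. PSMD14, that deubiquitinase, changed least, at -0.18 ± 0.0683 in the authors' deposited table (adjusted p = 0.0237), and the intervals of PSMD1, -0.69 to -0.43, and PSMD14, -0.31 to -0.04, did not overlap. PSMD4, a ubiquitin receptor, and PSMD6 were not listed. The difference between any pair of genes was not tested, as both values come from the same libraries and their covariance is unknown.

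Of 8 activator and assembly genes 5 were listed, 3 lower and 2 higher, a listed share of 62.5% against the background of 45.3%; 1 of the lower ones would turn higher with values shifted up by 0.3 and both higher ones lower with values shifted down. In the authors' deposited table PSMG1, a chaperone of alpha-ring assembly, fell by 44.3% (-0.84 ± 0.0697, adjusted p = 2.04e-32), the lowest value of any listed gene with a PSM name. PSMG3, another chaperone of that ring, stood at -0.46 ± 0.0893 (adjusted p = 1.29e-06), and PSMD9, which assists assembly of the 19S base, at -0.34 ± 0.0815 in the authors' deposited table. PSMG2 and PSMG4, their partners, were not listed. PSME1 and PSME2, which together form the 11S cap that opens the core for short peptides, were the listed PSM genes that rose: PSME1 by 0.27 ± 0.0608 (adjusted p = 3.7e-05) and PSME2 by 0.20 ± 0.0707 (adjusted p = 0.0105) on the log2 scale in the authors' deposited table, and both would turn lower with all values shifted down by 0.3. PSME3, which forms a nuclear cap of the same family, fell by 0.26 ± 0.0620 (adjusted p = 0.000107) on the log2 scale in the authors' deposited table and would turn higher with values shifted up by 0.3. The intervals of PSME1, from 0.15 to 0.39, and PSME2, from 0.07 to 0.34, overlapped each other and not that of PSME3, from -0.38 to -0.14.

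**Figure D3:**
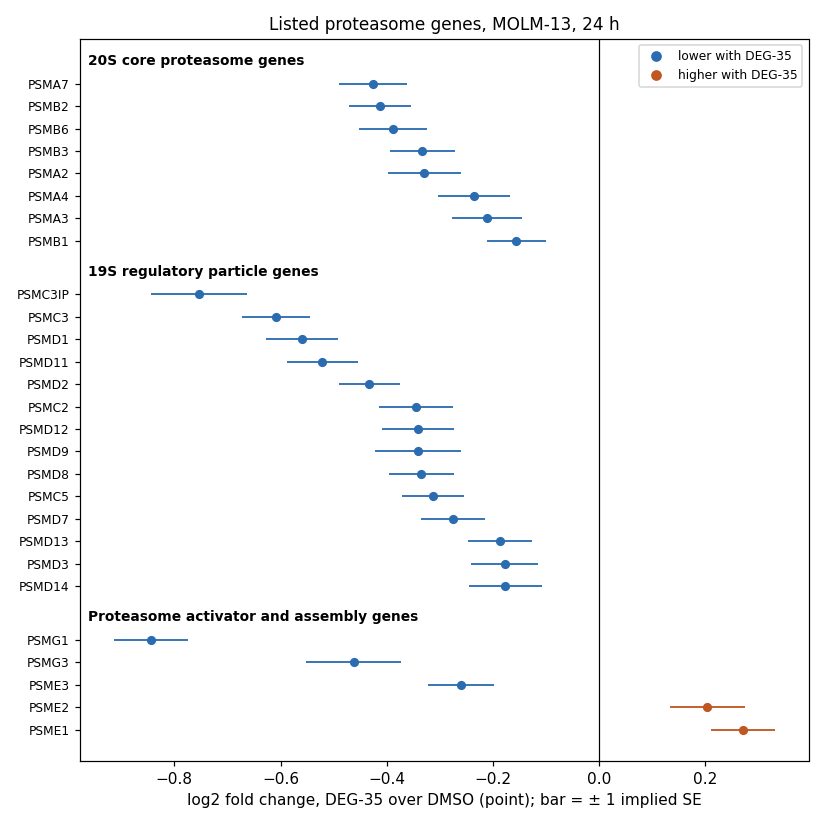
Log2 fold change (DEG-35 over DMSO, points) with 1 implied SE either way (bars) of the listed proteasome genes, by role group. All 8 core and all 14 regulatory particle genes lie left of 0, and PSME1 and PSME2 right of it; with values shifted up by 0.3, 3 core and 4 regulatory particle genes would lie right of 0, and with values shifted down by 0.3 PSME1 and PSME2 would lie left of it.

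The promoter windows of PSME1 and PSME2 are shown because these genes moved together and against the other listed subunits. Each window covers 250 bases before and 50 after the annotated start, from RefSeq on GRCh38.p14, written along the gene's strand, with the capitals marking the letters GAAA, any 2 bases and GAAA again, on either strand, the core of the interferon-stimulated response element.
PSME1 (chr14:24135944-24136243, plus strand): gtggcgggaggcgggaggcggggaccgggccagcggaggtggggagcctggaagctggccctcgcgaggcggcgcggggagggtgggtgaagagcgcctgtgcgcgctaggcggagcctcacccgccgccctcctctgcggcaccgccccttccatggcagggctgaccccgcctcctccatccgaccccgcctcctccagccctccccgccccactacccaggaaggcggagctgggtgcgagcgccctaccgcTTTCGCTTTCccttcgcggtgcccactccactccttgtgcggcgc
PSME2 (chr14:24146561-24146860, minus strand): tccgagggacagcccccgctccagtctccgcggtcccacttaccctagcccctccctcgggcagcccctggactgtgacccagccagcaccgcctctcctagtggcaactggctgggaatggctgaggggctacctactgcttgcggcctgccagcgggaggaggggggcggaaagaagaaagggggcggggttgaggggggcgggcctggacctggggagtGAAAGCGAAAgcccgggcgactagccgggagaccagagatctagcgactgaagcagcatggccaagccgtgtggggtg
These letters occur in 3.57% of all 35116 RefSeq windows of this length. Of the 53 listed members with a window, 3 have them: PSME1, PSME2 and PSMA4, which was lower. A match is a description of the letters and shows neither binding nor a cause.

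Partner genes of the proteasome were taken from a list of related genes. Of 22 proteasome regulators and cofactors 13 were listed in the authors' deposited table, 9 lower and 4 higher, 40.9% and 18.2% against backgrounds of 24% and 21.4%; 4 of the 9 would turn higher with values shifted up by 0.3 and all 4 higher ones lower with values shifted down. The shuttle receptor gene RAD23B stood at -0.33 ± 0.0615, POMP, a chaperone of beta-ring assembly, at -0.33 ± 0.0671 and the ubiquitin-binding shuttle gene UBQLN4 at -0.30 ± 0.0629 in the authors' deposited table. Both proteasome-bound deubiquitinase genes fell, USP14 at -0.29 ± 0.0639 and UCHL5 at -0.28 ± 0.0615 in the authors' deposited table. SHFM1, now called SEM1 and encoding the smallest 19S subunit, stood at -0.33 ± 0.0755 in the authors' deposited table. NFE2L1, the transcription factor that raises proteasome genes when the proteasome is blocked, and PSMF1, an inhibitor of the core, were not listed. NGLY1, which encodes the deglycosylating enzyme that NFE2L1 needs, rose by 0.29 ± 0.0780 on the log2 scale in the authors' deposited table.

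Ubiquitin genes did not share a direction. Of 11 genes for ubiquitin, its activating enzymes and the VCP segregase with its cofactors, 9 were listed in the authors' deposited table, 6 lower and 3 higher, 54.5% and 27.3% against backgrounds of 24% and 21.4%, with 3 of the 6 and 2 of the 3 turning under a shift of 0.3 against them. UFD1L, a cofactor of VCP, stood at -0.62 ± 0.0819 (adjusted p = 5.56e-13) in the authors' deposited table. The polyubiquitin gene UBB stood at -0.26 ± 0.0566 in the authors' deposited table.

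Of 18 HSP70, HSP110 and HSP90 genes 11 were listed in the authors' deposited table, all 11 lower, 61.1% against the background of 45.3%, and their log2 fold changes had a median of -0.40; 4 of them, HSP90AB1, HSPA4L, HSPA9 and HSP90B1, would turn higher with values shifted up by 0.3. HSP90AA1, the stress-inducible cytosolic HSP90, fell by 45.3% (-0.87 ± 0.0629, adjusted p = 4.55e-42), the smallest adjusted p among the HSP genes of the authors' deposited table. HSP90AB1, the constitutive form, fell by 12.8% (-0.20 ± 0.0596, adjusted p = 0.00297) according to the authors' deposited table, and the intervals of the pair, -0.99 to -0.75 for HSP90AA1 and -0.31 to -0.08 for HSP90AB1, did not overlap. HSPH1, the main inducible HSP110, fell by 42.2% (-0.79 ± 0.0611, adjusted p = 6.25e-37) according to the authors' deposited table, and its relative HSPA4L fell by 12.3% (-0.19 ± 0.0732, adjusted p = 0.0239). HSPA8, the constitutive cytosolic HSP70, stood at -0.31 ± 0.0595 (adjusted p = 9.34e-07) in the authors' deposited table. HSPA1A, an inducible HSP70, stood lowest at -0.91 ± 0.394 in the authors' deposited table, just inside the threshold (adjusted p = 0.0459). Its interval, -1.69 to -0.14, covers all listed values of the group, from -0.91 to -0.16, so its rank is uncertain. Its near-identical neighbour HSPA1B was not listed, so how reads were shared between them is uncertain. HSPA14, an HSP70 that works at the ribosome, stood at -0.56 ± 0.0680 (adjusted p = 2.06e-15) in the authors' deposited table.

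Heat shock elements, the sites that heat shock factors recognise, were looked for in the same promoter windows as 3 units, GAA, TTC and GAA with any 2 bases between neighbours, on either strand, marked by capitals. The inducible and the constitutive cytosolic HSP90 genes and DNAJA1 are shown.
HSP90AA1 (chr14:102086995-102087294, minus strand): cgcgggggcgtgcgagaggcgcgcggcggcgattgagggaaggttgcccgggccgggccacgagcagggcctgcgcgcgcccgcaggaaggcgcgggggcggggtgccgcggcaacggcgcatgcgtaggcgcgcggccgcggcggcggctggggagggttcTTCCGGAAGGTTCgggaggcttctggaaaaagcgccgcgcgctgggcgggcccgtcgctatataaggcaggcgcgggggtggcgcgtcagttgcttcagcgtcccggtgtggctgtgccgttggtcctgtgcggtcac
HSP90AB1 (chr6:44247693-44247992, plus strand): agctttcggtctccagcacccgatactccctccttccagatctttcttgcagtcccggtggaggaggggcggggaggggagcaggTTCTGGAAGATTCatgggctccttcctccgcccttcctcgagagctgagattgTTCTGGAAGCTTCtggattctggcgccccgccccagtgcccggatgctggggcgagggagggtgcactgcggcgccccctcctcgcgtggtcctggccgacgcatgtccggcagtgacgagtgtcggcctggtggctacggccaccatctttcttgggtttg
DNAJA1 (chr9:33025023-33025322, plus strand): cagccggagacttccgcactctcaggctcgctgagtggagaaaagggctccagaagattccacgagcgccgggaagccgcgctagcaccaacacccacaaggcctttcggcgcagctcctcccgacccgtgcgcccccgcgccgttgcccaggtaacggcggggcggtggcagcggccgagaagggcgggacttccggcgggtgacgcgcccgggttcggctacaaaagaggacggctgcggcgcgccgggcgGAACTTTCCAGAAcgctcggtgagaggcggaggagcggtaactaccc
Such letters occur in 0.49% of all windows and in those of 5 of the 53 members with a window, the other 2 being HSPA8 and HSPD1. All 5 genes were lower, HSP90AB1 and HSPD1 only as long as values were not shifted up by 0.3. Of all listed members 82.0% were lower, so this direction does not set the 5 genes apart. A match shows neither binding nor a cause. Their log2 fold changes in the authors' deposited table were -0.87 for HSP90AA1, -0.63 for DNAJA1, -0.31 for HSPA8, -0.22 for HSPD1 and -0.20 for HSP90AB1. HSPH1, DNAJB1 and HSPA1A, which stood at -0.79, -0.63 and -0.91 in the authors' deposited table, have no such letters in their windows, which says only that this form of the site is not within these bases. Of the heat shock factors, HSF1 and HSF2 were not listed, HSF4 rose by 0.81 ± 0.126 (adjusted p = 7.58e-10) on the log2 scale and HSBP1, which binds HSF1, stood at -0.43 ± 0.0721 in the authors' deposited table.

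Co-chaperones help HSP90 and HSP70 to take up and release clients. Of 20 HSP90 co-chaperone genes 13 were listed in the authors' deposited table, 10 lower and 3 higher; 2 of the 10 would turn higher and all 3 higher ones lower with shifts of 0.3. Lower genes made up 50.0% of the 20, against the background of 24%, and higher genes 15.0%, against 21.4%. FKBP5, known as a glucocorticoid-responsive gene, stood at -0.88 ± 0.0713 (adjusted p = 6.62e-34) in the authors' deposited table. STIP1, the adaptor between HSP70 and HSP90, stood at -0.60 ± 0.0575 (adjusted p = 1.65e-24) and FKBP4, the relative of FKBP5, at -0.50 ± 0.0605 (adjusted p = 1.33e-15) in the authors' deposited table. CDC37, which loads kinases onto HSP90, rose by 0.23 ± 0.0741 on the log2 scale in the authors' deposited table. Of 12 exchange factors and cofactors of HSP70 8 were listed there, 6 lower and 2 higher, 50.0% and 16.7% against the same backgrounds, with 1 of each turning under a shift of 0.3 against it. GRPEL2, a mitochondrial exchange factor, stood at -0.76 ± 0.0869, BAG5 at -0.36 ± 0.0705 and BAG2 at -0.31 ± 0.0675 in the authors' deposited table, where ST13 and SIL1 were the higher ones.

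A choice of 8 HSP and DNAJ genes of the endoplasmic reticulum, where secreted proteins fold, was made by hand. Of these, 6 were listed in the authors' deposited table, all 6 lower and with a median of -0.33. Lower genes made up 75.0% of the 8, against the background of 24%. HSP90B1, DNAJB9 and DNAJC3 would turn higher with values shifted up by 0.3. Other DNAJ genes were left out, among them DNAJC16 and DNAJC18, which were higher at 0.68 and 0.29. The shared direction thus holds for this choice of genes only. HSPA5, also known as BiP, the HSP70 of the compartment, fell by 29.7% (-0.51 ± 0.0541, adjusted p = 1.05e-19), the smallest implied SE of any member in the authors' deposited table. Its relative HSPA13 stood at -0.40 ± 0.0743, and its co-chaperone genes DNAJB11, DNAJB9 and DNAJC3 at -0.39 ± 0.0684, -0.27 ± 0.112 and -0.18 ± 0.0674 in the authors' deposited table. HSP90B1, also known as GRP94, changed least, at -0.16 ± 0.0637 (adjusted p = 0.0258) in that table by the authors, and its interval, -0.29 to -0.04, did not reach that of HSPA5, -0.61 to -0.40.

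The promoter windows of HSPA5 and HSP90B1 are shown because both hold the endoplasmic reticulum stress element and the intervals of their changes did not overlap. The element was searched as CCAAT and CCACG with any 9 bases between them, on either strand, which the capitals mark.
HSPA5 (chr9:125241294-125241593, minus strand): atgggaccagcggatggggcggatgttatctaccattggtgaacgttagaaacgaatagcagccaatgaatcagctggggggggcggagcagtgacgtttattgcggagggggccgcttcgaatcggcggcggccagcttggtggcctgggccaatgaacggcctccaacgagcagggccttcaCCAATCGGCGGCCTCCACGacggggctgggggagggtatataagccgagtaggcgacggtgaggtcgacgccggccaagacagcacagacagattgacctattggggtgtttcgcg
HSP90B1 (chr12:103930160-103930459, plus strand): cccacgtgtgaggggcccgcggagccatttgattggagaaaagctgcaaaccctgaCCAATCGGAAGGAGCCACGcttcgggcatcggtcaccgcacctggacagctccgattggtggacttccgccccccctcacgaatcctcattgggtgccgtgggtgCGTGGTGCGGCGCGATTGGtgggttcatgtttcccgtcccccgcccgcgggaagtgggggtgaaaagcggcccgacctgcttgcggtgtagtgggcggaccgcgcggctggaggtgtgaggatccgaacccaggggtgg
The element occurs in 0.0769% of all windows, and these 2 genes are the members that have it. Both were lower, as were 82% of all listed members, so this direction does not set them apart. As with the other motifs, a match shows neither binding nor a cause.

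Among 14 other folding genes of the endoplasmic reticulum 9 were listed in the authors' deposited table, 6 lower and 3 higher, 42.9% and 21.4% against backgrounds of 24% and 21.4%, and 2 of the 3 higher ones would turn lower with values shifted down by 0.3. MANF, a stress-induced protein of this compartment, stood at -0.85 ± 0.0910 (adjusted p = 2.1e-19) and the disulfide isomerase gene PDIA6 at -0.46 ± 0.0589 (adjusted p = 4.97e-14) in the authors' deposited table. XBP1, a transcription factor of the unfolded protein response, rose by 0.48 ± 0.0591 (adjusted p = 7.53e-15) on the log2 scale in the authors' deposited table, and the other higher ones were P4HB and CALR.

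HSPE1 and HSPD1 encode the lid and the barrel of the mitochondrial chaperonin, and their genes lie head to head, overlapping at their starts on opposite strands in GENCODE 29. HSPE1 fell by 29.6% (-0.51 ± 0.0618, adjusted p = 3.43e-15) and HSPD1 fell by 14.4% (-0.22 ± 0.0602, adjusted p = 0.000723) according to the authors' deposited table, and their intervals, -0.63 to -0.38 for HSPE1 and -0.34 to -0.11 for HSPD1, did not overlap. HSPA9, the mitochondrial HSP70, stood at -0.18 ± 0.0601 in the authors' deposited table (adjusted p = 0.00797). HSPD1 and HSPA9 would turn higher with values shifted up by 0.3. Of 10 other mitochondrial chaperone and protease genes 5 were listed, 4 lower and 1 higher, 40.0% and 10.0% against backgrounds of 24% and 21.4%, the higher one turning with values shifted down by 0.3. They were led by the protease genes LONP1 at -0.56 ± 0.105 and CLPP at -0.53 ± 0.109 and by TIMM44, of the import motor, at -0.33 ± 0.0835 in the authors' deposited table.

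Of 10 small heat shock protein and mitochondrial chaperonin genes 3 were listed, HSPB11, HSPE1 and HSPD1, all 3 lower. The listed share was 30%, against the background of 45.3% in either direction. By direction, 30% were lower, against 24%, and 0% higher, against 21.4%. HSPD1 keeps its direction only without the shift up, as given above. Of the HSPB genes HSPB11 was the 1 listed, and it fell by 57.2% (-1.22 ± 0.128, adjusted p = 1.47e-20) in the authors' deposited table. RefSeq now calls this gene IFT25, and its product is a part of the intraflagellar transport machinery. It is thus counted here by its older symbol only. HSPB1 and the other HSPB genes were not listed, nor were the stress chaperone genes CRYAB, CRYAA, CLU and SERPINH1. Such genes failed the threshold or were never tested.

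CCT chaperonin genes did not move as a block. The CCT complex folds actin and tubulin, and its first subunit is encoded by TCP1. Of 9 genes with a CCT name 6 were listed in the authors' deposited table, 4 lower and 2 higher, and CCT6A and CCT7 would turn higher with values shifted up by 0.3 and CCT8 lower with values shifted down. The listed share was 66.7%, against the background of 45.3%, with 44.4% lower against 24% and 22.2% higher against 21.4%. CCT5 stood at -0.42 ± 0.0592 (adjusted p = 9.59e-12), CCT2 at -0.30 ± 0.0608 (adjusted p = 3.95e-06), CCT6A at -0.21 ± 0.0569 (adjusted p = 0.000625) and CCT7 at -0.21 ± 0.0588 (adjusted p = 0.00127) in the authors' deposited table. TCP1 itself stood at -0.56 ± 0.0571 (adjusted p = 2.15e-21) in the authors' deposited table. CCT8, a subunit of the same ring, was higher by 0.19 ± 0.0615 (adjusted p = 0.00639) in the authors' deposited table, with an interval from 0.07 to 0.31 that met none of those of the 4 lower CCT genes. CCT3 and CCT4 were not listed. CCT6B, the paralog of CCT6A known from testis, was 2.99-fold higher (1.58 ± 0.219, adjusted p = 5.16e-12), the highest value of any member in the authors' deposited table. Of 13 prefoldin and other CCT partner genes 6 were listed, 5 lower and 1 higher, 38.5% and 7.69% against backgrounds of 24% and 21.4%, with 2 of the 5 turning under a shift up by 0.3. The phosducin-like gene PDCL, at -0.40 ± 0.0858, fell, and the prefoldin subunit PFDN5, at 0.35 ± 0.0717, rose in the authors' deposited table.

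DNAJ genes were split evenly between the directions as deposited, before any shift. Of 44 genes 14 were listed in the authors' deposited table, 31.8% against the background of 45.3%, 7 lower and 7 higher, with 3 of the lower ones turning higher under a shift up by 0.3 and 1 of the higher ones lower under a shift down. DNAJC9, a histone chaperone that also binds HSP70, fell by 66.2% (-1.56 ± 0.0659, adjusted p = 1.17e-122), the lowest value and the smallest adjusted p of all 61 members in the authors' deposited table, where it ranked 134 by p. The main cytosolic partners of HSP70, DNAJB1 and DNAJA1, were almost equal: DNAJB1 fell by 35.5% (-0.63 ± 0.0617, adjusted p = 2.82e-23) and DNAJA1 fell by 35.4% (-0.63 ± 0.0621, adjusted p = 5.42e-23) in the authors' deposited table. DNAJC8, which takes part in splicing, stood at -0.26 ± 0.0635 in the authors' deposited table, and the other lower ones were the co-chaperones of HSPA5 given above.

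Of the 7 higher DNAJ genes 6 were of the C class, which shares little beyond the J domain. That class holds 28 of the 44 DNAJ genes and 9 of the 14 listed ones. Its share of higher genes, 21.4%, was that of the background, 21.4%. DNAJC16 rose by 60.5% (0.68 ± 0.0965, adjusted p = 1.45e-11) and DNAJC4 by 87.0% (0.90 ± 0.141, adjusted p = 1.3e-09) in the authors' deposited table. DNAJB2, a neuron-enriched co-chaperone with ubiquitin-binding motifs, was 2.24-fold higher (1.16 ± 0.173, adjusted p = 1.4e-10) in the authors' deposited table. DNAJC5B, a relative of the synaptic cysteine string protein, stood at 1.47 ± 0.491 (adjusted p = 0.0078), DNAJC28 at 0.99 ± 0.338, DNAJC30, a mitochondrial protein, at 0.48 ± 0.156 and DNAJC18 at 0.29 ± 0.112 in the authors' deposited table. These 4 genes were among the less precisely measured members. Over the 61 members 4 had an implied SE above 0.2, and 3 of these 4 were higher.

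**Figure D4:**
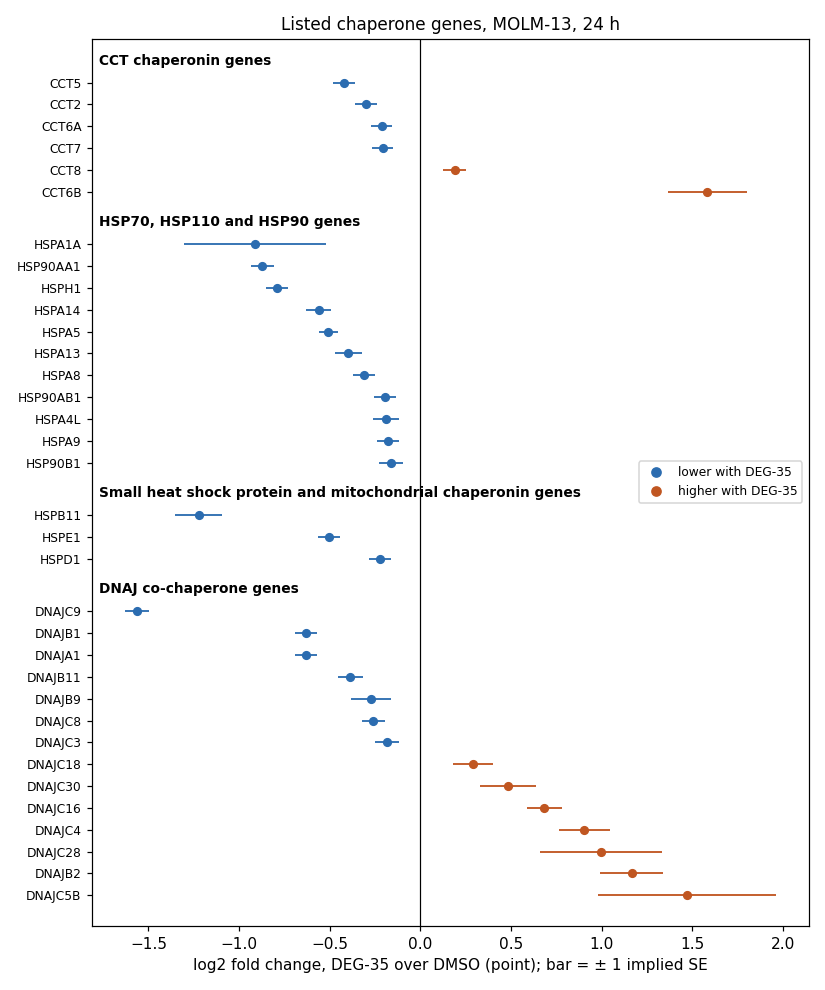
Log2 fold change (DEG-35 over DMSO, points) with 1 implied SE either way (bars) of the listed chaperone genes, by role group. The 11 HSP70, HSP110 and HSP90 genes all lie left of 0, the CCT genes lie on both sides with CCT6B farthest right at 1.58, and DNAJ genes run from DNAJC9 at -1.56 to DNAJC5B at 1.47; with values shifted up by 0.3, 4 of the 11 HSP genes would lie right of 0.

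Over all 111 related genes, 66 were listed in the authors' deposited table, 48 lower and 18 higher, and the median of their log2 fold changes was -0.31, against -0.19 over all listed genes; 12 of the 48 would turn higher with values shifted up by 0.3, and 13 of the 18 lower with values shifted down. The listed share was 59.5%, against the background of 45.3%. This list was compiled with earlier results of the comparison known, so its counts are a description.

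**Figure D5:**
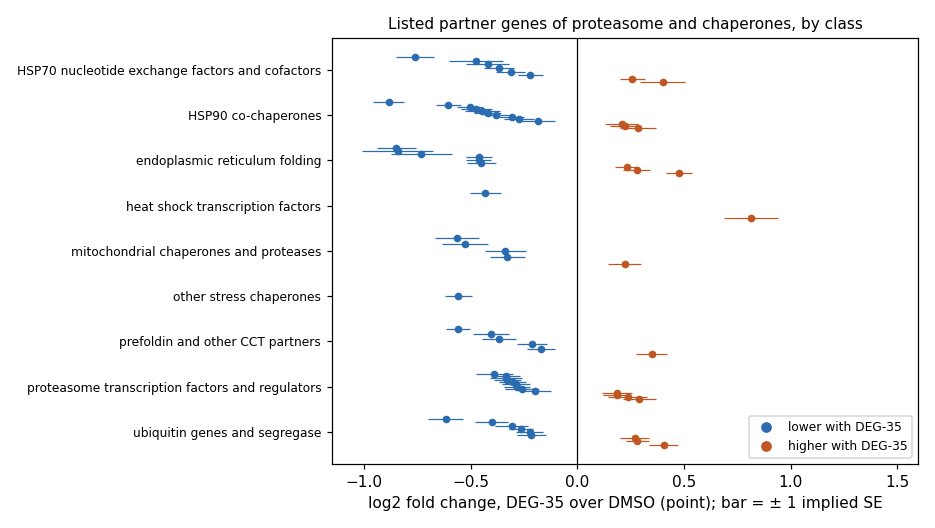
Log2 fold change (DEG-35 over DMSO, points) with 1 implied SE either way (bars) of 66 listed partner genes of the proteasome and the chaperones, by class. In most classes more points lie left of 0 than right of it, with FKBP5 at -0.88 farthest left and HSF4 at 0.81 farthest right; with values shifted up by 0.3, 12 of the 48 lower genes would lie right of 0, and with values shifted down by 0.3, 13 of the 18 higher genes would lie left of it.

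How reads were assigned bears on several members, because neither strand use nor the treatment of copies is given in the sources used here. RefSeq names 115 pseudogenes after 25 of the 61 members, most of them after HSPE1, with 28, HSPD1, with 22, and HSPA8, with 20. In GENCODE 29, 32 members overlap a gene on the other strand, and for 11 of them that gene is listed too. HSPA14 overlaps CDNF, which stood at 1.29 ± 0.331, and PSME3 overlaps BECN1, at 0.27 ± 0.0702 in the authors' deposited table, both opposite in direction to the member. DNAJB1 overlaps TECR, which at -0.50 ± 0.0774 went the same way in the authors' deposited table. So did THAP5, at -0.80 ± 0.111, with DNAJB9, at -0.27 ± 0.112, in the authors' deposited table. AGMAT, at 0.43 ± 0.109, did so with DNAJC16, at 0.68 ± 0.0965, in the authors' deposited table. PSMG3 and DNAJC9 went against their antisense RNAs, as given below. The part of such reads in the values was not tested.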

How the data were processed

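RNA was taken from MOLM-13 cells after 24 h with 50 nM DEG-35 or DMSO, with 3 mRNA libraries per group, per the labels' protocols. The submitters' processing notes give STAR, featureCounts, DESeq2 and hg19 by name, with neither versions nor options. The authors deposited 1 table that holds, per the file headers, each gene's log2 fold change with its p-value before and after adjustment, and it was used as deposited, since no per-library values were analysed. The number of tests, 15064, was solved from adjusted p, raw p and rank, and held within 0.1% for the 2789 genes whose p-value exceeded 1e-04. The implied SE was found as the size of the log2 fold change over the standard normal quantile that its two-sided p-value gives, which assumes a Wald test. Both steps recovered known answers on simulated data.

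Members and lists were chosen with earlier results of these data known. In each role group the text names the 4 smallest adjusted p-values, the highest and lowest change and the 2 leading members against the majority, and in each class of related genes the 3 smallest adjusted p-values, some of which are not reported here. All other genes were named after their values had been seen. Of the 61 members, 60 matched a RefSeq symbol of GRCh38.p14 and 1 a synonym. RefSeq promoter windows, held for 53 of them, were searched for 5 motifs on both strands. The 53 members have 68 windows, and a member was counted once if any of its windows held the motif. Member counts and the shares of all windows thus have different bases. Of the motifs not described in the results, the CCAAT box, CCAAT, was found in 34.6% of all windows. It occurred in 35 of the 68 member windows, for 31 of the 53 members. The E-box CACGTG was found in 7.26% of all windows and in 10 of the 68, for 10 members. GENCODE 29 on GRCh38 gave overlaps and strand only. Values were computed with SciPy 1.17.1, NumPy 2.4.6 and pandas 2.3.3 under Python 3.11.15, and plots drawn with Matplotlib 3.10.9.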

Additional observations from a re-analysis of the deposited data

How the results depend on the processing

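Each count was taken again under stricter settings, which can only lower it, and after shifts of all log2 fold changes. With a log2 fold change of at least 0.5 required, 15 lower members were left (0 of the 20S core, 4 of the 19S particle, 1 activator or assembly, 0 CCT, 5 HSP70, HSP110 or HSP90, 2 small heat shock or mitochondrial chaperonin and 3 DNAJ genes) and 6 higher ones (0 activator or assembly, 1 CCT and 5 DNAJ genes), with 12 lower and 1 higher related genes. With Bonferroni adjustment over the implied tests, in the same order of groups, 30 lower members were left (5, 9, 2, 2, 6, 2 and 4) and 4 higher ones (0 activator or assembly, 1 CCT and 3 DNAJ genes), with 28 lower and 5 higher related genes. An adjusted p below 0.01 left 1 higher activator gene, and an implied SE of at most 0.2 left 1 higher CCT gene. Shifted up by 0.3, and again in that order, 32 members were lower (5, 10, 2, 2, 7, 2 and 4) and 29 higher (3, 4, 3, 4, 4, 1 and 10), with 36 lower and 30 higher related genes. Shifted down by 0.3, 54 were lower (8, 14, 5, 5, 11, 3 and 8) and 7 higher (0 activator or assembly, 1 CCT and 6 DNAJ genes), with 61 lower and 5 higher related genes. Named genes that changed sign when shifted up became 0.09 for CCT6A, 0.14 for HSP90B1, 0.08 for HSPD1, 0.14 for PSMB1, 0.12 for PSMD14 and 0.04 for PSME3, and when shifted down -0.11 for CCT8, -0.03 for PSME1 and -0.10 for PSME2. Leaving out PSMC3IP and HSPB11, an alternative chosen after seeing the data, moved no count by over 1.5 times. No paired analysis was possible because the table holds no per-library values, and for the same reason no replicate could be left out, and depth limits could not be set.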

Other observations

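Rows that the naming rule leaves out include antisense RNAs and a readthrough gene beside members. In the authors' deposited table PSMG3-AS1 was 2.56-fold higher (log2 fold change 1.35 ± 0.162 implied SE), whereas PSMG3 on the other strand stood at -0.46 ± 0.0893. DNAJC9-AS1 was higher by 0.60 ± 0.177 on the log2 scale in the authors' deposited table, whereas DNAJC9 stood at -1.56 ± 0.0659. PSMD5-AS1 was higher by 0.58 ± 0.0783 in the authors' deposited table, and PSMD5 was not listed. HSPE1-MOB4, a readthrough of HSPE1 and MOB4, stood at -0.48 ± 0.0634 in the authors' deposited table, between HSPE1 at -0.51 and MOB4 at -0.31. HSPBP1, an exchange factor of HSP70 whose name ends like that of a pseudogene, stood at -0.47 ± 0.127 in the authors' deposited table and is counted among the related genes. The part of reads from overlapping genes in these values was not tested.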
